A study of Mus musculus with 33 samples.

Results

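RNA from 79 mouse genes for ubiquitin conjugation and removal was described in CH12 cells, a mouse B lymphoma line, with and without the chromatin reader ZMYND8. The candidates were the 252 protein-coding RefSeq genes whose symbols begin with Usp, Ube2, Ube3, Ube4, Trim, Fbxo, Fbxw, Fbxl or Herc. The value of a gene was the summed estimated count of numbered genomic regions that lie wholly inside its span and inside no other gene. The members were selected on these values: a gene was kept when its total over the 24 RNA libraries reached 100 counts. Of the candidates, 123 held no such region, 50 had a region but fewer counts, and 79 were kept, out of 10750 genes with a value and 5246 with at least 100 counts. The members just inside the limit were Trim36 (103.5 counts), Herc6 (106.3), Usp29 (111.0) and Ube2n (111.0), and those just outside were Usp12 (94.1), Ube3b (93.7), Fbxo25 (93.3) and Usp30 (91.0). Since the total chose the members, total levels are given as a description.

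Ubiquitin is attached to proteins in a relay, in which an activating enzyme (E1) charges a conjugating enzyme (E2, here the Ube2 genes) and a ligase (E3) selects the target. HECT ligases such as the Herc and Ube3 proteins carry the ubiquitin themselves, U-box proteins such as Ube4b and RING proteins such as most Trim proteins bring the E2 to the target, and F-box proteins (Fbxo, Fbxw, Fbxl) are the target receptors of cullin-based SCF ligases. The Usp proteins are the main family of deubiquitinases, which cut ubiquitin off again. In B cells this system controls the turnover of BCL6, Myc and NF-kB inhibitors, and the signalling complexes below CD40 and the antigen receptor. A symbol does not fix the activity: Usp18 removes the ubiquitin-like protein ISG15, and Usp6nl is named after a USP gene but is a GTPase-activating protein.

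The libraries came from 4 CH12 lines: the parental wild type (WT), a clone labelled wild type (the WT clone), and KO1 and KO2, both clones with ZMYND8 knocked out (KO). A culture was kept for 48 h in 1 of 2 states, unactivated or activated. For every line, 3 cultures were taken in each state, giving 8 groups and 24 libraries of ribosome-depleted total RNA. What activated the cells is not in the labels, and 9 further ChIP-seq and GRO-seq samples were not analysed here. Each genotype is carried by only 2 lines, so p-values measure the spread between cultures, and a difference between genotypes cannot be told apart from other differences between these clones.

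A gene value counts RNA from numbered regions only. Reads that the authors' quantification gave to annotated transcripts are not in it, and whether a region lies over an exon, an intron or the opposite strand was not analysed here. The values below are therefore levels of region RNA inside a gene and not of its mature mRNA. Library totals ran from 28.99 M to 34.07 M estimated counts, of which 0.78% to 1.20% were in gene values, and the members held between 1431 and 2283 counts per library. Parental WT library 3 and WT clone library 2, both unactivated, stood apart with 1.20% and 1.14% of counts in gene values, where the other unactivated libraries had 0.78% to 1.04%. B lineage markers with a value (7 of 12, among them Cd79a, Cd22 and Pax5) summed to 21.4 to 71.8 CPM (counts scaled by library size and by TMM factors over all targets). Their sum was 50.7 to 71.8 CPM in activated KO and 31.3 to 54.9 CPM in activated WT libraries, and its part in the differences below was not tested. In such bulk RNA, a change in RNA per cell and a change in the share of cells that make it cannot be told apart. Markers of T cells (2 of 7 with a value, Bcl11b at 0) reached at most 0.0906 CPM and those of fibroblasts and epithelium (2 of 5, Col1a1 at 0) at most 0.0342 CPM, while myeloid markers (3 of 6) summed to 0.334 to 1.23 CPM and plasma cell markers (2 of 4) to 0.122 to 1.13 CPM. None of the 3 erythroid markers had a value. Region RNA inside Zmynd8 was 1.53 ± 0.262 CPM in unactivated WT and 1.90 ± 0.397 CPM in unactivated KO (SD, n = 6), and 2.43 ± 0.435 against 3.48 ± 0.671 CPM in activated cells. Where the deletion lies relative to these regions is not given in the labels, so this value does not test the knockout.

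The members were low and spread over all classes. They comprised 24 of 57 Usp genes, 14 of 37 Ube2, 2 of 5 Ube3 and Ube4, 17 of 70 Trim, 8 of 36 Fbxo, 3 of 24 Fbxw, 6 of 18 Fbxl and 5 of 5 Herc genes. A member held a median of 2 regions (range 1 to 12) and a median of 14.2 counts per library (4.31 to 146). Members spanned a median of 49.4 kb, and the other protein-coding genes with at least 100 counts spanned 55.7 kb (n = 4525). Per kb of effective region length, the mean level over the 24 libraries had a median of 0.337 CPM over the members and a lowest value of 0.0700. The highest per kb in their classes were Trim26 (1.77), Usp34 (1.60), Ube3a (1.02), Fbxo22 (0.593), Fbxl5 (0.568), Herc4 (0.442) and Fbxw8 (0.420). Ube2n, the E2 that builds signalling chains in the NF-kB pathway, had 1.97 CPM per kb, but from a total of 111.0 counts. Its level was divided by the effective length of its 1 region, only 0.074 kb. The plot of level per kb by class shows 78 of the 79 members.

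**Figure D1:**
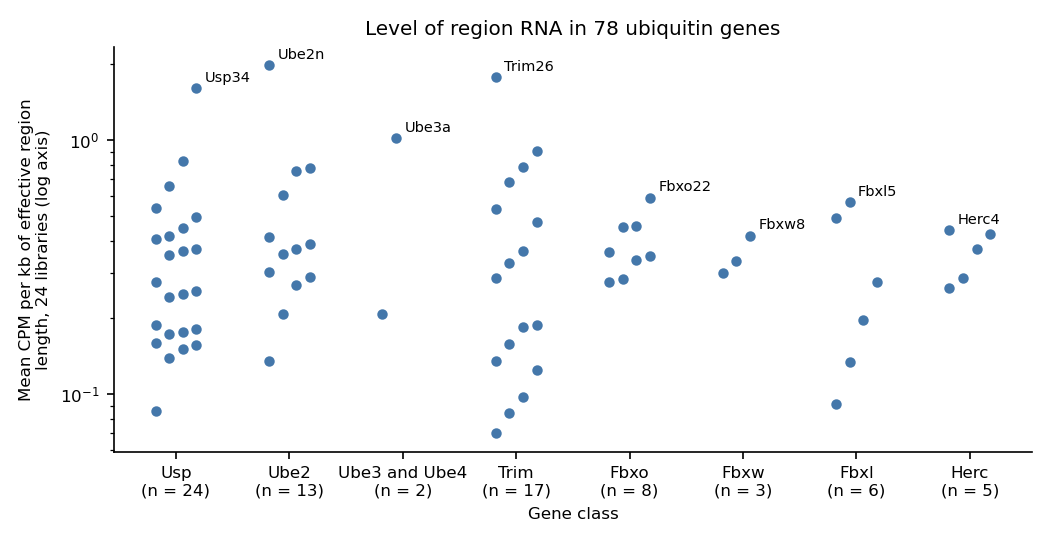
Mean CPM per kb of effective region length over 24 libraries (log axis) for 78 of the 79 members, 1 point per gene, by gene class. The highest point of each class is named, from Ube2n at 1.97 down to Fbxw8 at 0.420, and the lowest member lies at 0.0700.

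Of the 79 members, 68 passed the low-count filter and were tested, in a fit over all 4510 gene values that passed. The other 11 (Fbxl13, Herc2, Herc6, Trim2, Trim36, Ube2f, Ube2n, Ube2z, Usp28, Usp29 and Usp42) have levels only. A value was called at a Benjamini-Hochberg adjusted p under 0.05 in edgeR's quasi-likelihood test, and the ± beside a log2 change is its SE. In unactivated cells no member was called between KO and WT, higher or lower, where 3.46% of all gene values tested were called higher and 3.1% lower. The lowest adjusted p of a member was 0.0983, 5 of 68 members (7.4%) had an unadjusted p under 0.05 beside 18.5% of all gene values, and DESeq2 called 0. Without the 2 unactivated WT libraries that stand apart, 0 members were higher and 1 (Usp34) lower in unactivated KO, beside 4.26% and 2.66% of all gene values in the same fit. In activated cells 3 members were higher in KO, Herc1, Trim11 and Trim17, and 0 were lower, beside 6.34% and 2.33% of all gene values. DESeq2 called 2 of the members. The share of all gene values that DESeq2 called is not given here for any comparison. In edgeR, 9 members (13.2%) had an unadjusted p under 0.05 beside 18.8% of all gene values. The median log2 change of the tested members was -0.04 unactivated and 0.12 activated (all gene values -0.04 and 0.07).

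Activation moved more members. In the WT lines 6 of 68 rose and 4 fell, beside 16.4% and 5.41% of all gene values. In the KO lines 16 rose and 1 fell, beside 24.1% and 4.24%, and leaving out each KO library in turn gave 9 to 14 rises (9 without activated KO2 library 3). The members' share of calls was thus below or close to the share over all gene values in each of these comparisons. For the fits that left out a library, the share over all gene values is not given here. Without the 2 unactivated libraries that stand apart, 13 members rose and 2 fell in WT, beside 23.1% and 4.79% of all gene values in the same fit. The scaling matters here, because activation raised the median of all gene values by 0.19 (WT) and 0.28 (KO) on the log2 scale when libraries were scaled on all targets. The members' medians were 0.15 and 0.29. Scaled to the gene values themselves, which removes that shift, 3 members were higher and 8 lower in WT (beside 11.3% and 11% of all gene values), and 3 higher and 7 lower in KO (beside 12.9% and 10.9%). With this scaling and without those 2 libraries, 4 were higher and 6 lower in WT (beside 11.1% and 10.6%). Called under both scalings were Fbxl17, Herc1, Trim7, Fbxo40, Trim11, Usp44 and Usp54 in WT, and Fbxw7, Herc1, Trim7 and Usp44 in KO. With gene-value scaling alone, Fbxl5, Fbxo5, Usp6nl and Usp7 were called lower in WT and Fbxl5, Fbxo40, Trim26, Ube2e1, Usp6nl and Usp7 in KO. Of the 10 calls in WT, 6 held in each of the 12 fits that left out a library (Fbxl17, Fbxo40, Herc1, Trim7, Usp44 and Usp47). Of the 17 in KO, 8 did so (Fbxw7, Herc1, Trim7, Trim17, Ube2h, Usp15, Usp34 and Usp44). The plot of log2 changes by class marks the called members.

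**Figure D2:**
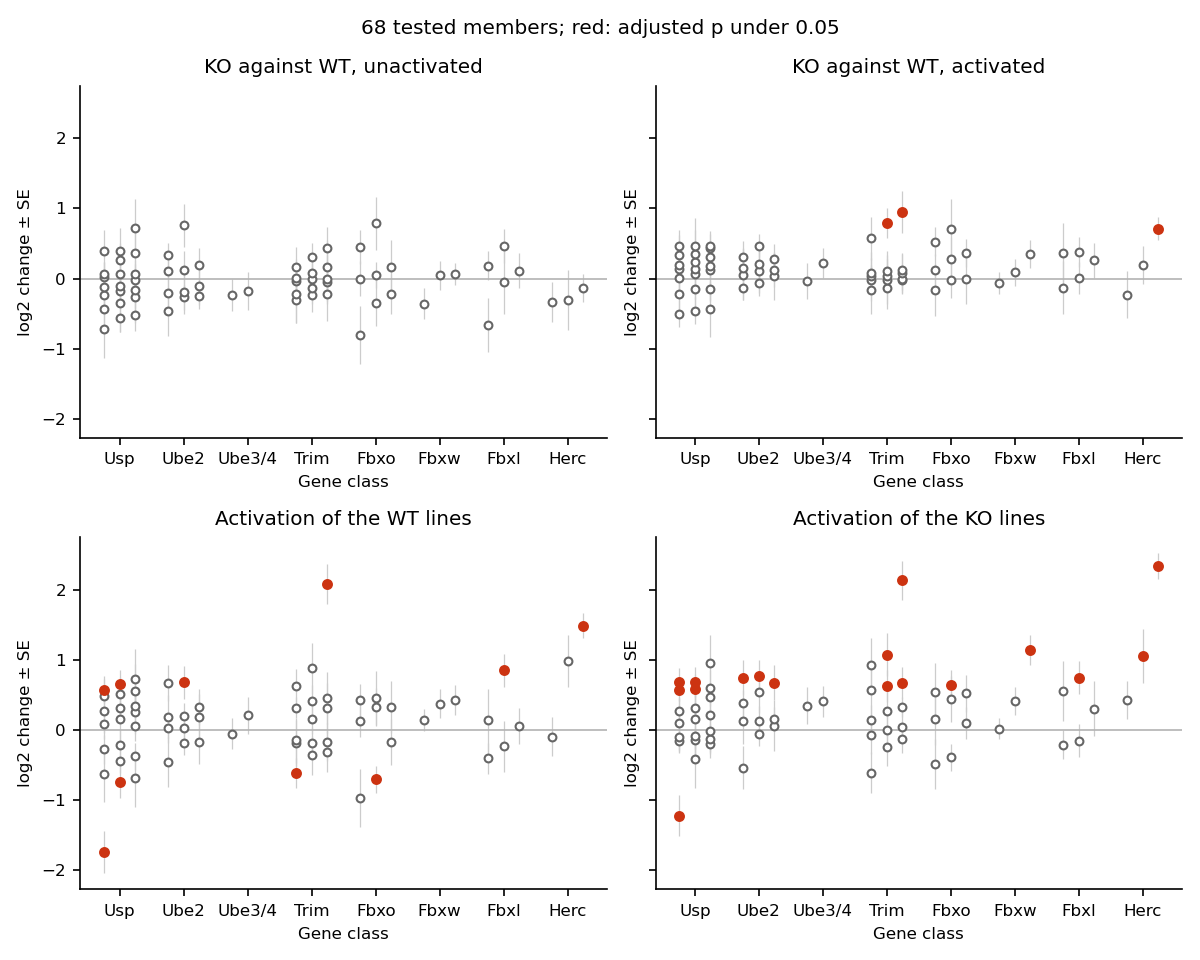
Log2 change ± SE of the 68 tested members by gene class, in 4 comparisons. Red points passed an adjusted p of 0.05: none in unactivated KO against WT, 3 in activated KO against WT, 10 on activation of WT and 17 on activation of KO.

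Promoter sequences are shown for 4 members that rose on activation in at least 1 genotype, so that the starts of these genes can be compared. RefSeq windows of GRCm38.p6, from 250 bases before to 50 bases after a start, were found for 57 of the 79 members (76 windows), with none used here for Trim11, Trim17 or Usp44. Capitals mark matches, on either strand, to TCTCGCGAGA (the only palindrome of 10 bases shared by the Herc1 and Usp47 windows, chosen after the sequences were seen from 6 that at least 2 members share), to the NF-kB motif, or to CAGACA. No match overlaps another. Trim7 and Fbxw7 have several windows, of which 1 is shown.
Herc1, chr9:66350200-66350499, + strand: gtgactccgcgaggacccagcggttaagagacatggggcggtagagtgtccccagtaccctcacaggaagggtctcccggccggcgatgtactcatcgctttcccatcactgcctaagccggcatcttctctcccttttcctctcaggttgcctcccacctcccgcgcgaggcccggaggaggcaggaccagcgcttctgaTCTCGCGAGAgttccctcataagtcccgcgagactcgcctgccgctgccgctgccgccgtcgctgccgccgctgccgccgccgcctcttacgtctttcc
Usp47, chr7:112023256-112023555, + strand: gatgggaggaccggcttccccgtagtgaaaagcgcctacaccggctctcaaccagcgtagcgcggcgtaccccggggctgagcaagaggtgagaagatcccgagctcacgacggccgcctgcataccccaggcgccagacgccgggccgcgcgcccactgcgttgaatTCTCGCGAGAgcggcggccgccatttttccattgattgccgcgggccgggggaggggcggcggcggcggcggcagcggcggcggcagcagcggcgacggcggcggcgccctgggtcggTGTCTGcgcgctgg
Trim7, chr11:48837221-48837520, + strand: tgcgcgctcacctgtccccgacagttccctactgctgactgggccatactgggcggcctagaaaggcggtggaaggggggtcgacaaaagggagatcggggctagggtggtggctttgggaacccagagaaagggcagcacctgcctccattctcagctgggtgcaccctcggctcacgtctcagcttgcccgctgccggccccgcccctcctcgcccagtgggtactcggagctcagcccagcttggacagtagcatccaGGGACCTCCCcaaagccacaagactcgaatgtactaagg
Fbxw7, chr3:84815327-84815626, + strand: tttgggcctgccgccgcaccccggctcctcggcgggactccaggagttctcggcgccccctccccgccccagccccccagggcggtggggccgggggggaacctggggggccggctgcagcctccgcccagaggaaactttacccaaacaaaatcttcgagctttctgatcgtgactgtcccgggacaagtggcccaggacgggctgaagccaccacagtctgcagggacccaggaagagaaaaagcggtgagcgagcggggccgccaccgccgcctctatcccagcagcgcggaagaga

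TCTCGCGAGA was found in 2 of 76 member windows, those of Herc1 and Usp47 from which it was chosen. These 2 matches were fixed by that choice. The share of 2.63% therefore cannot be compared with the 0.466% of 32851 windows of the same length. The motif also holds CG pairs, of which member windows have more than all windows. The NF-kB motif was in 5.26% of member windows (all windows 8.46%), among them Trim7, Fbxl19, Fbxo11 and Ube3a. CAGACA, which holds the Smad box, was in 11.8% (all 21.0%), CACGTG, the E-box of Myc, in 6.58% (all 7.15%) and TGANTCA, the AP-1 motif, in 10.5% (all 7.81%). Member windows had a median of 22.5 CG pairs and 64.0% G and C bases, against 7 and 52.7% for all windows. A match is a description of these letters and not of a bound site.

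Among the conjugating enzymes, Ube2h was called on activation in both genotypes. It rose from a median of 0.364 CPM (0.197 to 0.663) to 0.645 (0.517 to 0.831) in WT, and from 0.456 (0.393 to 0.623) to 0.762 (0.496 to 1.15) in KO, with overlapping groups in each. Its log2 changes were 0.68 ± 0.24 (adjusted p = 0.0405) and 0.77 ± 0.23 (adjusted p = 0.0124), and neither was called with gene-value scaling. The WT call was lost in 8 of 12 fits that left out a library. Ube2e3 rose in KO by 0.68 ± 0.25 (adjusted p = 0.0464), and its value in WT was 0.67 ± 0.26 (adjusted p = 0.0677). Its KO call was lost in 9 of 12 fits that left out a library, with DESeq2 (adjusted p = 0.101) and with gene-value scaling (0.37, adjusted p = 0.329), and KO2 alone gave 0.32 (adjusted p = 0.634). Ube2d1, a broadly acting E2 named here after its values were seen, rose in KO from 0.285 ± 0.0839 to 0.472 ± 0.104 CPM (SD, n = 6; log2 change 0.75, adjusted p = 0.0263). That call was lost in 5 of 12 fits that left out a library, with DESeq2 (adjusted p = 0.0767) and with gene-value scaling (0.45, adjusted p = 0.208). In all, 1 of 11 tested Ube2 genes rose in WT and 3 in KO on activation, beside 16.4% and 24.1% of all gene values. None was called between genotypes, beside 3.46% of all gene values higher and 3.1% lower unactivated, and 6.34% and 2.33% activated. Ube2n, not tested, was at 0.158 ± 0.124 CPM in unactivated WT, 0.115 ± 0.0722 in activated WT, 0.154 ± 0.0598 in unactivated KO and 0.156 ± 0.0722 in activated KO.

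Herc1, a giant protein with RCC1-like repeats and a HECT domain, had the largest log2 change on activation of KO among the tested members. Unactivated libraries had a median of 0.917 CPM (0.723 to 1.02) in WT and 0.701 CPM (0.570 to 1.46) in KO. On activation these became 2.49 CPM (1.92 to 3.37) and 4.00 CPM (3.69 to 4.76). Activated libraries lay above unactivated ones in both genotypes, and every activated KO library lay above every activated WT library. The log2 change on activation was 1.49 ± 0.18 in WT (adjusted p = 5.27e-07) and 2.34 ± 0.18 in KO (adjusted p = 1.74e-10). Between activated KO and WT it was 0.71 ± 0.16 (adjusted p = 0.00384), a ratio of means of 1.64. The parental line had a mean of 2.30 ± 0.318 CPM when activated and the WT clone 2.73 ± 0.738 CPM (SD, n = 3). The KO1 mean was 3.99 ± 0.331 CPM and the KO2 mean 4.24 ± 0.461 CPM. Each KO line was above each WT line, by 0.55 to 0.88, and of these 4 pairings only KO2 against parental WT was called (adjusted p = 0.0278). Against the WT clone alone the KO change was 0.59 (adjusted p = 0.0884). The plot of members by library shows each culture.

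**Figure D3:**
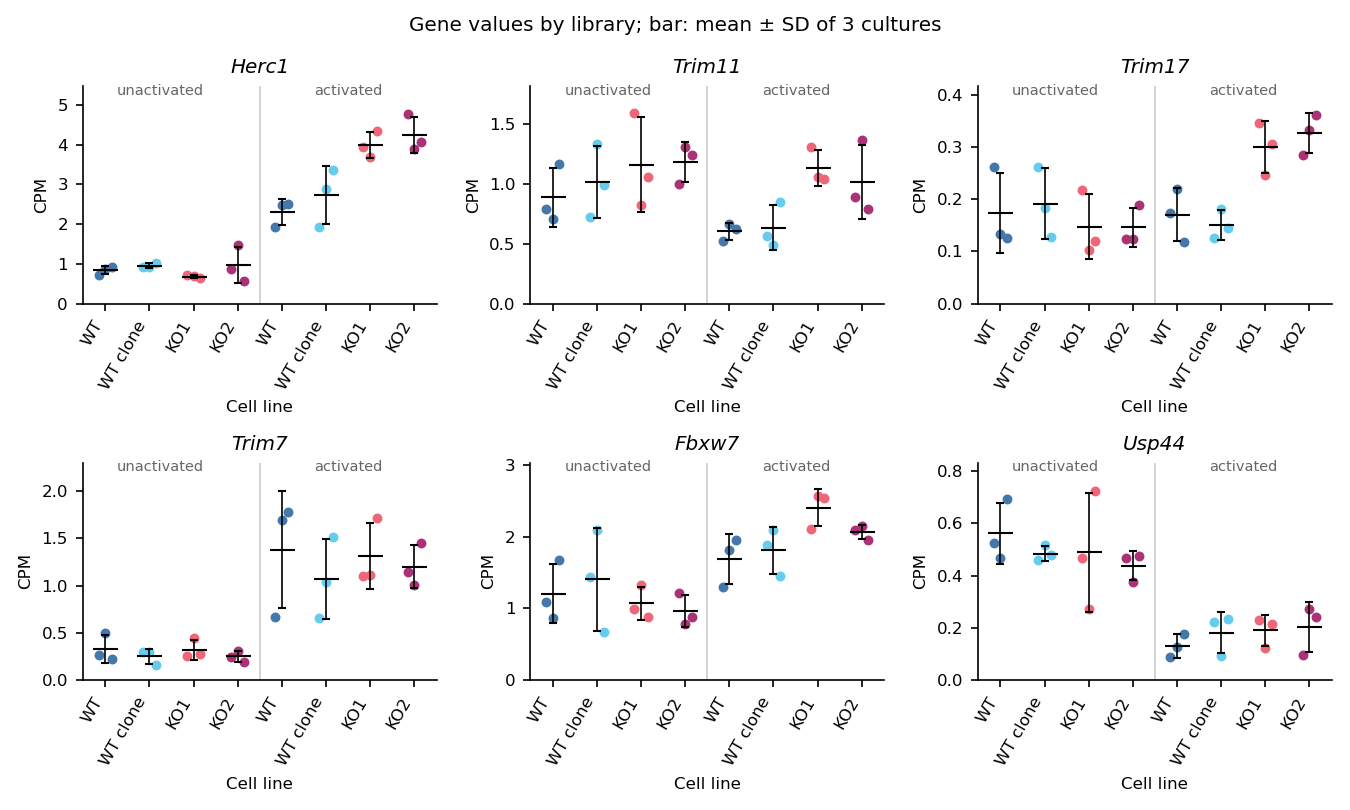
CPM of 6 members in every library, by line and state (3 points per line and state, bar: mean ± SD, n = 3). Herc1 rises on activation and is highest in the activated KO lines, Trim17 is higher in activated KO than in activated WT libraries, Trim7 rises and Usp44 falls in all lines.

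The difference between activated KO and WT in Herc1 was carried by 1 of its 4 regions. Regions were tested one by one in a fit over all 11264 regions that passed the filter, a test added after the gene values were seen, which covered 89 of the 198 member regions. The region at chr9:66503490-66506070, centred 97.5% along the gene and ending 2705 bases before its end and so far from the promoter window shown above, held 63.8% of the Herc1 counts. It had a median of 0.230 CPM (0.146 to 0.326) in unactivated WT, 1.39 CPM (1.04 to 2.11) in activated WT, 0.343 CPM (0.0903 to 0.499) in unactivated KO and 3.14 CPM (2.88 to 4.29) in activated KO. The activated KO libraries lay above all others. Its log2 change was 2.62 ± 0.26 on activation in WT (adjusted p = 2.32e-08), 3.42 ± 0.24 in KO (adjusted p = 2.1e-11), and 1.20 ± 0.20 between activated KO and WT (adjusted p = 0.000112). These 3 calls held under every alternative that was run. Between unactivated KO and WT its value was 0.40 ± 0.32 (adjusted p = 0.561). The other 3 regions had ratios of activated KO to WT means of 0.968, 0.735 and 0.696, and neither of the 2 that were tested was called in any comparison. The plot of region RNA shows the contrast between the last region and the rest of the gene.

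**Figure D4:**
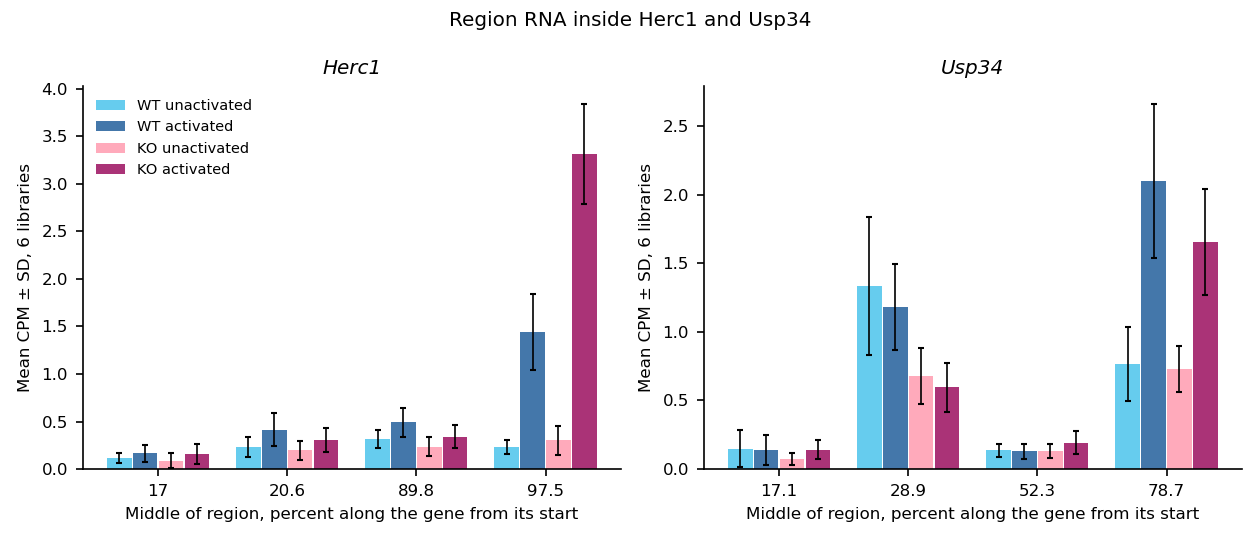
Mean CPM ± SD (n = 6) of each region inside Herc1 and Usp34, placed by its middle as percent along the gene from its start. In Herc1 the region at 97.5% is higher in activated KO than in activated WT, and in Usp34 the region at 28.9% is lower in KO in both states while the region at 78.7% rises on activation.

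The remaining HECT and U-box members gave 1 call as genes. Herc3, a small Herc protein named here after its values were seen, rose on activation of KO from 0.142 ± 0.0593 to 0.295 ± 0.115 CPM (SD, n = 6; log2 change 1.06, adjusted p = 0.0429), not called with gene-value scaling, DESeq2 or in 8 of 12 fits that left out a library. Herc4 was between 0.242 and 0.759 CPM in all libraries and was not called. Herc6, the interferon-induced ISG15 ligase of mice, was not tested and lay between 0.0302 and 0.273 CPM. Ube3a, the ligase imprinted in neurons, had 0.458 ± 0.0469 CPM in unactivated WT and 0.523 ± 0.164 in activated KO and was not called. Ube4b, a U-box ligase that extends ubiquitin chains, was not called as a gene, with activation changes of -0.05 ± 0.22 in WT and 0.41 ± 0.22 in KO. Its region at chr4:149348911-149349435 fell in WT from 0.310 ± 0.0672 to 0.0979 ± 0.0325 CPM (log2 change -1.64, adjusted p = 0.00468), while its other regions had ratios of 1.30 and 1.48.

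Trim17 and Trim11, RING ligases whose genes lie 650 bases apart on chromosome 11, were both higher in activated KO. Trim11 has 1 region (chr11:58981748-58983342) and had a median of 0.595 CPM (0.487 to 0.842) in activated WT and 1.05 CPM (0.785 to 1.37) in activated KO. The groups overlapped, the lowest KO library lying under the highest WT library. The log2 change was 0.79 ± 0.21 (adjusted p = 0.0167), and in unactivated cells it was 0.31 ± 0.21 (adjusted p = 0.474). On activation Trim11 fell in WT by 0.61 ± 0.22 (adjusted p = 0.0443), and its value in KO was -0.12 ± 0.20 (adjusted p = 0.69). The difference between activated KO and WT was not called without activated WT clone library 2 (0.71, adjusted p = 0.0578) or activated KO2 library 2 (0.66, adjusted p = 0.0711), nor against either WT line alone or in KO2 alone. The WT fall was lost in 8 of 12 fits that left out a library, and without the 2 unactivated libraries that stand apart it was -0.37 (adjusted p = 0.238).

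Trim17 is low, with 155.4 counts in total. It had a median of 0.159 CPM in unactivated WT (0.126 to 0.263), 0.159 in activated WT (0.119 to 0.220), 0.124 in unactivated KO (0.103 to 0.218) and 0.320 in activated KO (0.248 to 0.362). Every activated KO library lay above every library of the activated WT and unactivated KO groups. The log2 change was 1.07 ± 0.31 on activation of KO (adjusted p = 0.00973, not called with gene-value scaling), -0.18 ± 0.33 in WT (adjusted p = 0.759), and 0.95 ± 0.30 between activated KO and WT (adjusted p = 0.0463). The latter call was lost in 11 of 12 fits that left out a library and with DESeq2 (adjusted p = 0.158). Gene-value scaling also ended it (0.86, adjusted p = 0.0781). It was lost as well with relative log expression scaling, without the low-count filter and with counts summed per line. Neither KO line alone, nor the KO lines against either WT line alone, gave the call. In the fit of single regions, the region that holds 89.0% of Trim17 counts (chr11:58958914-58960725) rose on activation of KO by 1.51 (adjusted p = 0.00241). It was the only Trim17 region tested, and it was not called between activated KO and WT.

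Trim7, a RING ligase first described as a partner of glycogenin, rose in both genotypes, from 1 region (chr11:48842138-48843766). In WT it went from a median of 0.279 CPM (0.159 to 0.501) to 1.27 CPM (0.661 to 1.78), and in KO from 0.261 CPM (0.190 to 0.444) to 1.13 CPM (1.00 to 1.71). No activated library overlapped the unactivated ones of its genotype. The log2 changes were 2.08 ± 0.29 (adjusted p = 3.79e-06) and 2.13 ± 0.28 (adjusted p = 1.77e-06), with a difference of 0.05 ± 0.42 (adjusted p = 0.991). Trim37, a ligase acting on histone H2A and centrosomes, and Trim30a, an interferon-induced regulator of NF-kB signalling, rose in KO by 0.67 ± 0.23 (adjusted p = 0.0313) and 0.63 ± 0.23 (adjusted p = 0.0391). Their values in WT were 0.63 ± 0.24 (adjusted p = 0.0565) and 0.41 ± 0.22 (adjusted p = 0.209), and with gene-value scaling neither was called. Leaving out a library ended the KO call in 6 of 12 fits for Trim37 and in 8 for Trim30a. Trim26, also induced by interferon, had 0.833 ± 0.212 CPM in unactivated WT and 0.614 ± 0.278 in activated KO. It was not called, but with gene-value scaling it was called lower on activation of KO (-0.92, adjusted p = 0.0267). Its KO libraries ran from 0.682 to 1.20 CPM unactivated and from 0.243 to 0.889 CPM activated. Of 15 tested Trim genes, 1 rose and 1 fell in WT on activation (beside 16.4% and 5.41% of all gene values). In KO 4 rose (beside 24.1%).

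Among F-box genes, Fbxw7, the SCF receptor for cyclin E, Myc and Notch, rose on activation of KO. Its median went from 0.943 CPM (0.778 to 1.33) to 2.13 CPM (1.96 to 2.57), with no overlap, a log2 change of 1.14 ± 0.21 (adjusted p = 0.000154). In WT the medians were 1.27 CPM (0.668 to 2.10) and 1.86 CPM (1.30 to 2.10), which overlapped, with a value of 0.43 ± 0.21 (adjusted p = 0.155). Without the 2 unactivated WT libraries that stand apart the WT value was 0.78 (adjusted p = 0.00527). The difference between the genotypes' responses was 0.71 ± 0.30 (adjusted p = 0.381). Both Fbxw7 regions that could be tested rose in KO, by 0.97 (adjusted p = 0.000793) and 1.16 (adjusted p = 0.0179).

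Fbxl17, a receptor that removes wrongly paired BTB proteins, rose in both genotypes. Its median went from 1.11 CPM (0.822 to 1.48) to 2.11 CPM (1.19 to 2.73) in WT and from 1.19 CPM (0.780 to 1.78) to 1.91 CPM (1.42 to 3.33) in KO, with overlap in each. The log2 changes were 0.85 ± 0.24 (adjusted p = 0.01) and 0.75 ± 0.24 (adjusted p = 0.0189), and the KO call was lost with gene-value scaling and in 4 of 12 fits that left out a library. Fbxo40, known as a muscle F-box protein acting on IRS1, fell in WT by 0.70 ± 0.20 (adjusted p = 0.0102), from 1.01 ± 0.219 to 0.640 ± 0.227 CPM. In KO its value was -0.39 ± 0.19 (adjusted p = 0.13), called lower with gene-value scaling (-0.70, adjusted p = 0.00238). In parental WT alone the change was -0.36 (adjusted p = 0.488). Fbxo34 rose in KO by 0.65 ± 0.21 (adjusted p = 0.0245), not called with gene-value scaling or in 6 of 12 fits that left out a library. Fbxw11, the second beta-TrCP that marks NF-kB inhibitors, and Fbxo11, the receptor for BCL6, were not called as genes. Nor were Fbxl5, the iron-sensing receptor, Fbxo22 and Fbxw8, a cullin 7 partner. In the fit of single regions, 1 of 2 tested Fbxw11 regions was called higher on activation of WT. With gene-value scaling Fbxl5 was called lower on activation of WT (-0.61, adjusted p = 0.0275) and KO (-0.53, adjusted p = 0.0427). For Fbxo11 the activation values were 0.33 ± 0.27 in WT and 0.52 ± 0.27 in KO, and for Fbxw11 0.37 ± 0.20 and 0.42 ± 0.20.

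Among the deubiquitinases, Usp44, which acts on the mitotic checkpoint and on histone H2B, fell on activation in both genotypes. Its median went from 0.496 CPM (0.460 to 0.693) to 0.152 CPM (0.0867 to 0.232) in WT and from 0.467 CPM (0.273 to 0.725) to 0.223 CPM (0.0953 to 0.273) in KO. The libraries of the 2 states did not overlap in WT, and in KO the highest activated library equalled the lowest unactivated one to 3 digits. The log2 changes were -1.74 ± 0.30 (adjusted p = 8.21e-05) and -1.22 ± 0.29 (adjusted p = 0.00223). Most of the fall was in the region at chr10:93833377-93834675, with 88.2% of its counts, which fell by 2.04 in WT (adjusted p = 4.99e-05) and by 1.36 in KO (adjusted p = 0.00188). The other region had ratios of 1.16 and 0.835, from 30 counts in all.

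Usp34, a large deubiquitinase linked to Wnt signalling, held regions that moved differently. As a gene it rose on activation by 0.58 ± 0.19 in WT (adjusted p = 0.0307) and 0.68 ± 0.20 in KO (adjusted p = 0.0111), and its KO to WT values were -0.57 ± 0.20 unactivated (adjusted p = 0.0983) and -0.46 ± 0.19 activated (adjusted p = 0.165). Neither rise was called with gene-value scaling. The WT rise was lost in 7 of 12 fits that left out a library, and without the 2 unactivated libraries that stand apart it was 0.43 (adjusted p = 0.112), while the unactivated KO to WT value became -0.72 (adjusted p = 0.0324). The region at chr11:23357260-23357570, 28.9% along the gene, was lower in KO in both states. Its median was 1.37 CPM (0.740 to 1.88) in unactivated WT, 0.685 CPM (0.373 to 0.979) in unactivated KO, 1.28 CPM (0.747 to 1.497) in activated WT and 0.599 CPM (0.383 to 0.817) in activated KO. The groups overlapped at their edges. The log2 changes were -0.99 ± 0.27 (adjusted p = 0.018) and -0.98 ± 0.27 (adjusted p = 0.0171), and activation left values of -0.19 ± 0.25 and -0.17 ± 0.29 in WT and KO, not called. Leaving out parental WT library 2, WT clone library 3 or KO2 library 1 ended the unactivated call (range over single libraries -1.15 to -0.82). Leaving out parental WT library 2 or KO1 library 3 ended the activated call (range -1.10 to -0.86). The unactivated call was also lost in KO1 alone, in KO2 alone and against either WT line alone. The activated call was lost in KO1 alone and against either WT line alone. The region at chr11:23450230-23451184, 78.7% along the gene, rose on activation by 1.49 ± 0.22 in WT (adjusted p = 9.22e-06) and 1.18 ± 0.22 in KO (adjusted p = 0.000171), and between KO and WT it was not called (-0.03 unactivated and -0.34 activated).

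Usp47, which acts on DNA polymerase beta, rose by 0.66 ± 0.19 in WT (adjusted p = 0.0126) and 0.59 ± 0.20 in KO (adjusted p = 0.0313). With gene-value scaling neither was called (0.45, adjusted p = 0.0658, and 0.28, adjusted p = 0.31), and the KO call was lost in 6 of 12 fits that left out a library. Between activated KO and WT its value was -0.50 ± 0.19 (adjusted p = 0.111), and with gene-value scaling it was called lower in KO (-0.58, adjusted p = 0.0274). Usp15, which acts on TGF-beta receptors, and Usp25, which acts on TRAF signalling, rose in KO by 0.57 ± 0.16 (adjusted p = 0.00871) and 0.69 ± 0.21 (adjusted p = 0.0175), without overlap between states, and neither was called with gene-value scaling. Without unactivated KO1 library 2 the Usp25 value was 0.56 (adjusted p = 0.0536). Usp54 fell in WT by 0.74 ± 0.23 (adjusted p = 0.0208), from 0.957 ± 0.228 to 0.565 ± 0.195 CPM, and its value in KO was -0.09 ± 0.22 (adjusted p = 0.799). The WT call was lost in 4 of 12 fits that left out a library and without the 2 unactivated libraries that stand apart (-0.59, adjusted p = 0.0831), and the WT clone alone gave -0.34 (adjusted p = 0.578). Usp7, the deubiquitinase of p53 and Mdm2 and the member with the most counts, had 5.25 ± 1.80 CPM in unactivated WT and 3.85 ± 0.479 in activated WT (log2 change -0.44 ± 0.17, adjusted p = 0.068). With gene-value scaling Usp7 was called lower on activation in WT (-0.64, adjusted p = 0.00149) and KO (-0.45, adjusted p = 0.0196). Usp18, Usp22, the histone H2B deubiquitinase of SAGA, and Usp9x, an X-linked enzyme that stabilises Mcl-1, were not called in any comparison. Of 21 tested Usp genes, 2 rose and 2 fell on activation in WT (beside 16.4% and 5.41% of all gene values). In KO 4 rose and 1 fell (beside 24.1% and 4.24%).

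Grouped by role, with lists chosen with earlier results of these data known, few members could be followed. Of 17 interferon-induced symbols 4 were tested, and only Trim30a was called, on activation of KO. Of 13 histone-directed symbols 5 were tested, with Usp44 called lower in both genotypes and medians of -0.21 in WT and -0.15 in KO (all gene values 0.19 and 0.28). Of 8 symbols of mitosis and the anaphase-promoting complex 3 were tested, with Usp44 lower in both genotypes and Fbxw7 higher in KO. Of 7 symbols for conjugation of ubiquitin-like proteins 2 were tested and none was called. Beside these counts, 16.4% of all gene values rose and 5.41% fell on activation in WT, and 24.1% rose and 4.24% fell in KO.

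Other genes of the ubiquitin system give the setting. In the list of RING ligases of B cell signalling, 10 of 21 were tested, and on activation 5 rose and 1 fell in WT and 7 rose in KO. The list medians were 0.61 and 0.72 (all gene values 0.19 and 0.28). Beside this list and those below, 16.4% of all gene values rose and 5.41% fell in WT, and 24.1% rose and 4.24% fell in KO. These list counts and medians use the scaling on all targets, and include its general shift on activation. Among them Birc2, encoding an inhibitor of apoptosis protein that acts with Traf2 below CD40, rose from 1.43 ± 0.234 to 7.03 ± 1.503 CPM in WT (log2 change 2.28, adjusted p = 2.98e-10) and from 1.08 ± 0.325 to 3.70 ± 0.762 CPM in KO (1.76, adjusted p = 3.19e-08). In activated cells it was lower in KO by a log2 change of -0.92 (adjusted p = 0.000397), while its partner Traf2 was higher by 1.15 (adjusted p = 0.00205) and its paralogue Birc3 by 0.79 (adjusted p = 0.00057). Cblb, which restrains antigen receptor signalling, rose by 1.59 in WT (adjusted p = 5.05e-06) and 1.58 in KO (adjusted p = 6.8e-06). In the list of other HECT and RBR ligases 18 of 30 were tested, 4 rose in WT and 3 in KO on activation, and Rnf19b rose most, from 0.0335 to 0.414 CPM in WT (3.49, adjusted p = 7.98e-05) and from 0.0363 to 0.427 CPM in KO (3.40, adjusted p = 6.09e-05). Its unactivated libraries lie near 0 (medians 0.0164 and 0.0171 CPM), so these folds are loose: leaving out 1 library moved them up to 5.10 in WT (without unactivated parental WT library 3) and 4.99 in KO (without unactivated KO2 library 1). Nedd4, a HECT ligase of membrane proteins, was the only gene of these lists called in unactivated KO against WT (-0.65, adjusted p = 0.00559), and it was also lower in activated KO (-0.62, adjusted p = 0.00331). Against parental WT alone the unactivated value was -0.35 (adjusted p = 0.414). Of the SCF and cullin core 11 of 26 were tested, with 3 higher in WT (Cand2, Cul3 and Dcun1d5) and 0 in KO on activation, and Dcun1d5 lower in activated KO against WT. Of other deubiquitinases 11 of 35 were tested, with 4 called in WT (Cyld, Otulin, Stambpl1 and Uchl3, 3 higher and 1 lower) and 2 higher in KO (Otulin and Uchl3), and of the proteasome 7 of 40, with Psma6 higher in each. The names of genes in these counts were read after their values were seen. Among E1 enzymes 5 of 9 were tested and none was called, and of 10 genes for ubiquitin and like proteins none passed the filter.

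The activation responses of WT and KO lines, which share no library, can be set side by side. Called in both genotypes were 7 members: Fbxl17, Herc1, Trim7, Ube2h, Usp34, Usp47 and Usp44. Over the 68 members the changes had the same sign in 48 (70.6%, against 74.3% of all 4510 gene values), with r = 0.718 across members and 0.669 across all gene values, given as a description since genes are not replicates. Tested directly, the difference in activation response was called for no member, beside 0.421% of all gene values higher and 0.133% lower. Of the members, 4 (5.9%) had an unadjusted p under 0.05, beside 10.8% of all gene values, DESeq2 called 0, and the lowest adjusted p was 0.147, for Herc1 (0.85 ± 0.26). Trim17 had 1.25 ± 0.45 (adjusted p = 0.29) and Trim11 0.49 ± 0.30 (adjusted p = 0.597). So the larger number of calls in KO does not show that members responded differently there.

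**Figure D5:**
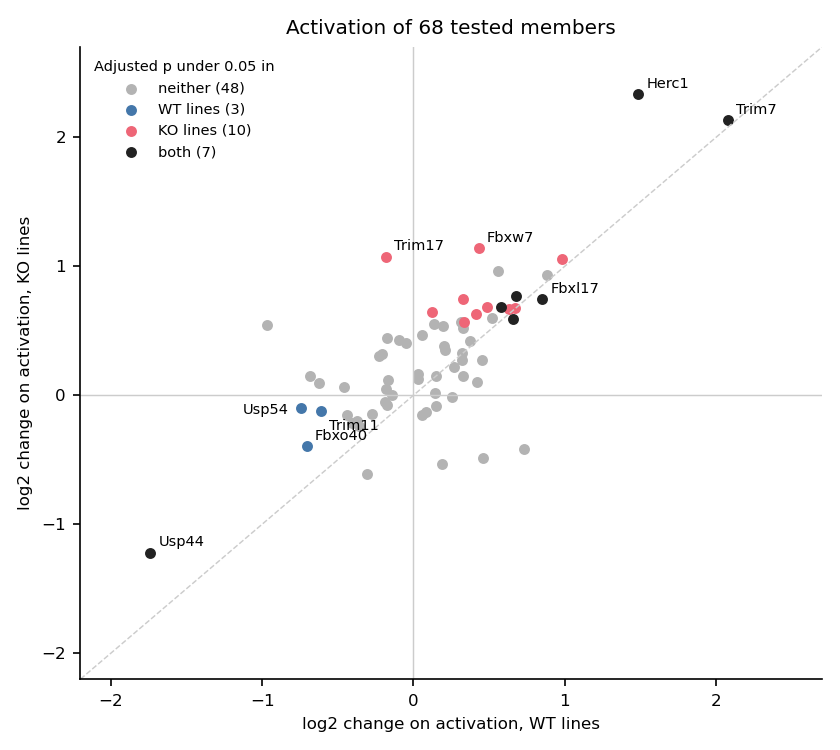
Log2 change on activation in the WT lines (x axis) against the KO lines (y axis) for 68 tested members, coloured by the genotype in which the change passed an adjusted p of 0.05, with the line of equal change dashed. Trim7 lies on the line and Herc1 above it, and 7 members were called in both genotypes.

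No tested member was called between lines of the same genotype. Between WT clone and parental WT, 0 members were called unactivated (beside 0.133% of all gene values) and 0 activated (beside 0.0887%). There, 2 members (2.9%) unactivated and 3 (4.4%) activated had an unadjusted p under 0.05, beside 5.8% and 4.8% of all gene values. Between KO2 and KO1, 0 were called unactivated (beside 0% of all gene values) and 0 activated (beside 0.155%). Here 3 members (4.4%) unactivated and 2 (2.9%) activated had an unadjusted p under 0.05, beside 4.6% and 5.9% of all gene values. DESeq2 called 0 members in all 4.

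Taken region by region, the members gave few calls. Of 89 regions in 61 members, 1 was called in unactivated KO against WT (beside 8.15% of all regions tested) and 3 in activated KO against WT (beside 10.6%). On activation 10 were called in WT (beside 22.8%) and 15 in KO (beside 29.5%), and none for the difference (beside 0.79%). For Herc1 and Usp34 the gene value joined regions that did not move together.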

How the data were processed

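RNA-seq of 24 libraries was used, with the 9 other samples of the series not analysed here. Per the labels' protocols, total RNA was depleted of ribosomal RNA and sequenced single-end after a stranded kit. Per the submitters' processing notes, kallisto 0.43.0, DESeq2 and GRCm38.p5 were named, without their roles. The authors deposited estimated counts per target for each library, over 171152 targets of which 49745 are numbered regions. Which annotation release was quantified, and with which strand option, is not given in the sources used here.

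Regions were placed in RefSeq gene spans, and 26591 lay wholly inside exactly 1 gene and were summed by gene, while 18754 outside genes and 4400 over a gene end or several genes were left out. Reads given to 121400 transcripts were left out of gene values, since no map from transcripts to genes was used here. Summed counts were rounded to whole numbers. All gene values that passed edgeR's filterByExpr (4510) were fitted together over 8 groups in R 4.3.3 with edgeR 4.0.16 (quasi-likelihood test, Benjamini-Hochberg adjustment), and no replicate block. Scaling was TMM over 61074 targets, so libraries are compared on nearly all their reads. A gene that is high in 1 group can pass the filter through that group. WT and KO groups joined 2 lines each (n = 6, 3 cultures a line). Single regions (11264) were fitted the same way after the gene values were seen.

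On simulated counts for activated KO against WT (4510 genes), 81% of genes changed 2-fold and 100% of those changed 4-fold were recovered, with 1.63% false calls. The changed genes were drawn only from those at or above the median level of the genes tested. No difference between lines of a genotype was simulated. Recovery of genes below that level was not tried, so these shares do not hold for the low members. Replicates differed beyond sampling noise (chi-square per degree of freedom 10.32 to 64.15 over 24 pairs), so each counted once. Counts per member (median 14.15 per library) limit the precision.

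The members and gene lists were chosen with earlier results of these data known. Named members were every called member of a comparison with at most 12 calls, otherwise the 6 highest and 6 lowest log2 changes among called members with at least 0.5 CPM in a group, plus the highest per kb of each class and a list of known members. A single member enters the counts and is not reported here by its own values. Up to 3 called genes of the pathway lists per comparison were added. Alternatives were other scalings (RLE, gene values alone), no filter, DESeq2 1.42.0, a replicate block and only the compared libraries. Counts were also summed over the cultures of each line and state and fitted with the line as the replicate. Single lines were read as other contrasts of the main fit. Further fits left out each library and, chosen after seeing the data, the 2 libraries that stand apart.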

Additional observations from a re-analysis of the deposited data

Results flagged for a closer look

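In 9 of 132 groups of 6 libraries examined (33 named members in 4 groups each), 1 library stood away from the other 5 by more than Dixon's critical value for 6 values allows, where chance gives about 1 in 20 groups. Unactivated parental WT library 3, which stands apart in its share of gene values, was the highest for Fbxl5 at 1.607 CPM (next 1.052), for Usp44 at 0.6931 CPM (next 0.5259) and for Usp7 at 8.695 CPM (next 5.637). Activated KO2 library 2 was the highest for Usp18 at 0.9716 CPM (next 0.6725).

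Unactivated KO2 library 2 was the highest for Herc1 at 1.463 CPM (next 0.8683). Unactivated WT clone library 1 was the highest for Usp22 at 0.7228 CPM (next 0.4789), and unactivated parental WT library 1 the lowest for Trim37 at 0.3287 CPM (next 0.6993). For Usp25, unactivated KO1 library 2 was the lowest at 0.2392 CPM (next 0.4341) and activated KO1 library 1 the lowest at 0.5494 CPM (next 0.7287).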

How the results depend on the processing

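In activated KO against WT, scaling to gene values alone kept Herc1 (0.62, adjusted p = 0.0116) and Trim11 (0.71, adjusted p = 0.0241) as higher. Trim17 was no longer called, and 1 member (Usp47) was called lower. The share of all gene values called there is not given here. On activation of WT this scaling gave 3 higher and 8 lower (beside 11.3% and 11% of all gene values). On activation of KO it gave 3 higher and 7 lower (beside 12.9% and 10.9%). Of 52 log2 changes of gene values it ended 17 calls and added 2, where RLE scaling ended 4, DESeq2 8, no low-count filter 10 and counts summed per line 8, and none of these reversed a direction. Of 16 log2 changes of single regions it ended 1 call (Usp15), and the other settings in that list ended 0. Without a low-count filter 10 members were higher on activation of KO. On activation, parental WT alone gave 2 higher and 2 lower, the WT clone alone 2 and 2, KO1 alone 6 higher, and KO2 alone 6 higher and 0 lower. In activated KO against WT, KO2 alone gave 1 higher, the KO lines against parental WT alone 1, and against the WT clone alone 0. The single-line values are other contrasts of the same fit of 24 libraries, and each contrast draws on fewer of them. The share of all gene values called in these contrasts, and without the filter, is not given here. These counts therefore do not show a change particular to the members.

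Without the 2 unactivated WT libraries that stand apart, 13 members were higher and 2 lower on activation of WT (beside 23.1% and 4.79% of all gene values), and 1 (Usp34) was lower in unactivated KO (beside 2.66%). With those libraries left out and gene-value scaling, the WT counts were 4 and 6 (beside 11.1% and 10.6% of all gene values). Leaving out each library in turn gave 0 to 1 higher (Usp48, without parental WT library 1) and 0 to 1 lower (Usp34, without WT clone library 2) in unactivated KO against WT. In activated KO against WT it gave 1 to 3 higher and 0 to 1 lower (Usp34, without parental WT library 3). It gave 4 to 12 higher (12 without unactivated parental WT library 3) and 2 to 5 lower on activation of WT (2 without library 2 of activated parental WT or of the WT clone in either state), 9 to 14 higher on activation of KO (9 without activated KO2 library 3), and 0 to 1 for the difference in response (Herc1, without unactivated KO2 library 2). Trim17 on activation of WT ran from -0.30 to 0.026 (above 0 without unactivated parental WT library 1) and Trim11 on activation of KO from -0.26 to 0.025 (above 0 without unactivated KO1 library 1), neither called in any of these fits. For the fits that left out a single library, the share of all gene values called is not given here. Their counts therefore do not show a change particular to the members. The cause of these shifts was not tested.

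The labels tie the replicate numbers to nothing shared between groups, and same-numbered libraries of other groups had correlations of -0.43 to 0.382, so the numbers were not taken as pairs. Their median was 0.1, against -0.049 for libraries with other numbers, and 18 of 24 libraries were closest to their own number, a hint from the data and not from the design. The fit with the replicate number as a block gave 1 member lower in unactivated KO against WT (Usp34, -0.60, adjusted p = 0.0477), lost the Trim11 call on activation of WT, and changed the call of no other of the 52 log2 changes of gene values. The other counts of calls under the replicate block were 3 higher in activated KO against WT, 7 higher and 3 lower in WT and 16 higher and 1 lower in KO on activation. The share of all gene values called under the block is not given here. Low counts, with a median of 14.15 per member and library, and 2 lines per genotype limit what can be detected.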
